A study of Mus musculus with 19 samples.

Results

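The 48 genes described here are cell cycle and DNA replication genes, chosen by symbol from the 46095 gene symbols of a mouse RNA sequencing table and followed through 19 libraries. All 48 symbols had a line in the table. The libraries came from bone marrow cells of C57bl/6 mice, with no other genotype and no age given in the labels. Mice had been spun at 15 G in sessions of 15 min over about 1 or 3 weeks, or served as controls that the labels list at 0 G. One cell type was bone marrow-derived macrophages (BMDM), phagocytes that mature in culture from progenitors of the marrow. The other was labelled mesenchymal stem cells of the marrow (BMSC), a name for stromal cells that stick to plastic. The BMDM sets held 3 controls and 2 hypergravity libraries at 1 week, and 2 of each at 3 weeks. For BMSC there were 3 controls and 3 hypergravity libraries at 1 week, then 2 and 2 at 3 weeks. The labels describe culture in DMEM with serum and M-CSF, the growth factor that drives macrophage precursors to divide and mature, and they give this macrophage culture for both cell types. The 1 week controls carry no duration in the labels, so the 1 week and 3 week sets also differ in whatever else separated the sets, and duration and set cannot be told apart.

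A dividing cell passes from G1, where it grows, into S phase, where DNA is copied, and through G2 into mitosis. E2F transcription factors, held back by the retinoblastoma protein until cyclin-dependent kinases release them, switch on the genes of replication, and the mitotic genes are switched on later, in part by FOXM1 and B-MYB. Marrow macrophage precursors divide in M-CSF, and macrophages that receive inflammatory stimuli are known to leave the cycle. The 48 genes were grouped by role into entry from G1 into S phase (4 genes), origin licensing and firing (11), DNA synthesis and nucleotide supply (6), the cyclins, kinases and regulators of G2 and mitosis (9), the spindle checkpoint and cyclin breakdown (5), and chromosomes, spindle and cell division (13).

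Library totals ran from 16324619 to 33015671 counts, and levels are given as CPM, counts scaled to a library total of 1000000. A gene without a count could have had up to 3 counts, or 0.0909 to 0.184 CPM, by counting error alone. Macrophage markers summed to between 22150 and 29760 CPM in BMDM and to between 20690 and 25390 CPM in BMSC. The summed level in BMSC was thus near that in BMDM, while single markers differed between the cell types, as given below. Stromal markers summed to between 10.87 and 60.63 CPM in BMDM and to between 1917 and 10830 CPM in BMSC, and all 7 of them were detected in every BMSC library. Granulocyte precursor markers summed to between 170 and 479 CPM in BMSC and to at most 23.8 CPM in BMDM. Erythroid markers summed to 0.666 to 8.01 CPM in the 1 week sets and to 13.1 to 17.5 CPM in the 3 week sets. Markers of B cells reached at most 6.35 CPM in any BMDM library and 61.7 CPM in any BMSC library, and those of T and NK cells at most 8.64 CPM, with Trac at 0 in every library.

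Promoter windows from RefSeq (GRCm38.p6), covering the bases before each gene's start, were available for 39 of the 48 genes. They were searched on both strands for 3 motifs known from cell cycle promoters: the CHR (TTTGAA or TTCGAA), the CCAAT box (CCAAT) and an E2F word (TTTCCCGC, TTTGGCGC, TTTCGCGC or TTTGCCGC). The CHR words were in 13 of 39 windows (33.3%) against 19.6% of 27025 genes, CCAAT in 30 (76.9%) against 37.5%, and an E2F word in 7 (17.9%) against 2.16%. CHR and CCAAT together were in 12 windows (30.8%) against 7.93% of all genes. The following windows are shown because they belong to genes on which the results turn, with motif words in capitals, 5′ to 3′ on the gene's own strand. Top2a (chr11:99024190-99024439, minus strand) and Mki67 (chr7:135716380-135716629, minus strand) are a pair of late cell cycle genes that parted in the data. Ccnb2 (chr9:70421555-70421804, minus strand) encodes a mitotic cyclin, and Mcm5 (chr8:75109259-75109508, plus strand) a subunit of the replicative helicase.
Top2a: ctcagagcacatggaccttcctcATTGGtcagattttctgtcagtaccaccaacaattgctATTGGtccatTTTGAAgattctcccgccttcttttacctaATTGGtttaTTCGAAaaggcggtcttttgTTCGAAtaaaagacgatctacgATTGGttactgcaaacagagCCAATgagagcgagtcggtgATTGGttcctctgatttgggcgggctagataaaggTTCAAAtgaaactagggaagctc
Mki67: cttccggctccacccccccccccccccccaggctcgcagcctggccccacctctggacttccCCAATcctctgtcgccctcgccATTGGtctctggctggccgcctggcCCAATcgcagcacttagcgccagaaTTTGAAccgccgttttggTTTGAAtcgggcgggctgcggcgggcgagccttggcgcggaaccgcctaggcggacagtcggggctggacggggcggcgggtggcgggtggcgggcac
Ccnb2: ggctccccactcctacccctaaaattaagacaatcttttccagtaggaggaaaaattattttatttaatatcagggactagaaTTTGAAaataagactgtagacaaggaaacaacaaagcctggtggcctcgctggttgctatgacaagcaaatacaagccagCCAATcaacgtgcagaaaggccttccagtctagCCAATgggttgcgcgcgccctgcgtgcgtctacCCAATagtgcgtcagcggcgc
Mcm5: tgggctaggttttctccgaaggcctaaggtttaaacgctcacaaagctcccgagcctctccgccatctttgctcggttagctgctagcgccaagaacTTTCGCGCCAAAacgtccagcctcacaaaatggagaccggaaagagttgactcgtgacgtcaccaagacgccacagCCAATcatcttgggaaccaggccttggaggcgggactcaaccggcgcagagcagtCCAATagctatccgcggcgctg
Both the Top2a and the Mki67 window hold CHR words and CCAAT boxes. The Ccnb2 window holds 1 CHR word and 3 CCAAT boxes, and the Mcm5 window holds 2 CCAAT boxes and a pair of overlapping E2F words. No searched word is in the Ccne1, Cdt1 or E2f1 window.

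In BMDM at 1 week, most of the cell cycle genes were far lower after hypergravity, from the helicase through the mitotic kinases to the kinesins. Of the 48 genes, 43 were called lower and 2 higher, where 61.4% of the 13842 tested genes were called (30.8% lower and 30.5% higher) (edgeR quasi-likelihood test, Benjamini-Hochberg adjusted p below 0.05 over all tested genes). The median log2 fold change of the 48 genes was -2.21, beside -0.03 over all tested genes. Both hypergravity libraries lay below all 3 controls in 45 of the 48 genes, against 47.4% of tested genes. In 43 genes both of these libraries held the 2 lowest levels of all 19 libraries, BMSC included. Their CPM fell below 10% of the control mean in 14 genes, below 25% in 32 and below 50% in 41. These counts were not taken over all tested genes, so no share stands beside them. The percentages are on library totals. Under library size scaling alone the median log2 fold change of the 48 genes was -2.47, against -2.21 after the TMM scaling used for the tests. In bulk RNA, fewer dividing cells and less of these transcripts per cell cannot be told apart.

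**Figure D1:**
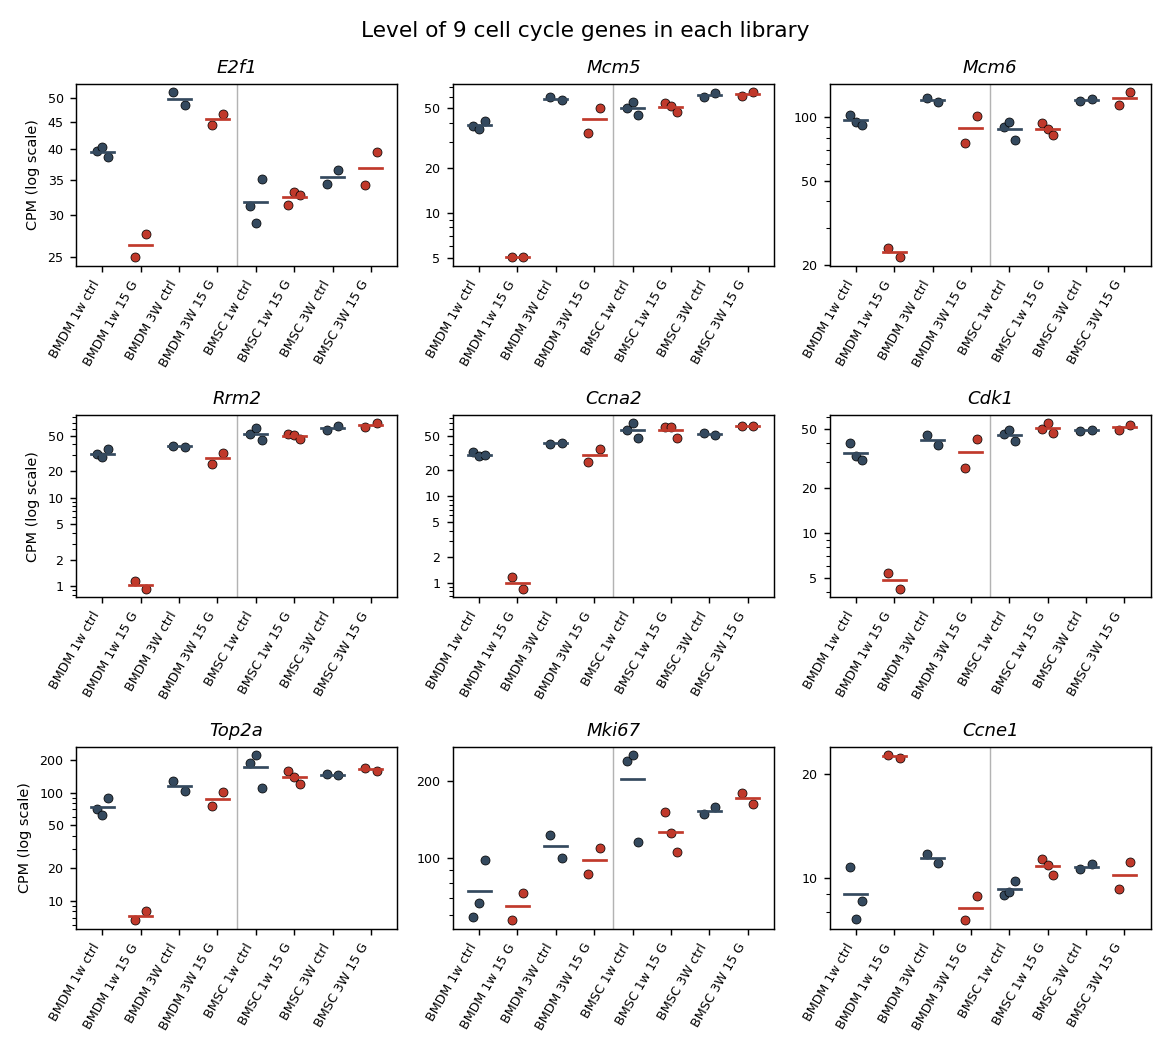
Level of 9 cell cycle genes in each of the 19 libraries in CPM on a log axis; points are libraries (dark: control, red: 15 G), short lines are group means, and the grey vertical line separates BMDM from BMSC. Ccna2, Rrm2 and Top2a in the 1 week hypergravity BMDM libraries sit far below every other library, whereas Mki67 there, at 57.1 and 73.1 CPM, overlaps its controls and Ccne1 lies above them.

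The 4 genes of entry into S phase did not move together. E2f1, which encodes the transcription factor that switches on replication genes, stood at 39.6, 40.4 and 38.6 CPM in the controls and at 24.98 and 27.7 CPM under hypergravity. Its groups did not overlap, and its log2 fold change was -0.32 ± 0.09 (SE, adjusted p = 0.0114), a call lost without hypergravity replicate 1 (adjusted p = 0.101). Cdk2, the kinase that cyclins E and A activate, went from 28.7, 30.3 and 29.9 CPM to 14.8 and 13.7 CPM (log2 -0.79 ± 0.11, adjusted p = 0.000173). Cyclin E, the partner of Cdk2 at the start of S phase, comes from a pair of genes, and these went opposite ways. Ccne2 stood at 16.4, 15.4 and 13.2 CPM in controls and at 2.40 and 1.97 CPM after hypergravity (log2 -2.54 ± 0.25). Ccne1 stood at 10.8, 7.63 and 8.62 CPM in controls and rose to 22.6 and 22.2 CPM (log2 1.56 ± 0.15, adjusted p = 1.26e-05). Of the 48 genes, Ccne1 alone had both hypergravity libraries above all controls, against 25.7% of tested genes. As a ratio within each library, Ccne1 counts per Ccne2 count were 0.496 to 0.657 in the 3 controls and 9.42 and 11.3 under hypergravity, while the other 14 libraries ranged from 0.457 to 0.97.

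Origin licensing and firing genes were lower in 9 of 11 cases, against 30.8% of tested genes, with a median log2 fold change of -1.41. The MCM2 to MCM7 proteins form the helicase that is loaded at origins in G1 and unwinds DNA in S phase, and all 6 of their genes fell, between -1.17 for Mcm3 and -2.66 for Mcm5. Mcm5 stood at 38.4, 36.5 and 41.2 CPM in controls and at 5.11 and 5.06 CPM after hypergravity (log2 -2.66 ± 0.17, adjusted p = 4.82e-07). Mcm6, the most abundant of these subunits per exonic length, went from 103, 95.5 and 92.0 CPM to 24.1 and 21.7 CPM (log2 -1.82 ± 0.14). Mcm3 went from 53.4, 46.8 and 51.4 CPM to 18.6 and 18.96 CPM (log2 -1.17 ± 0.14). The 3 subunits thus kept unequal shares of their control levels, 13.1% for Mcm5, 23.7% for Mcm6 and 37.1% for Mcm3. Cdc6, which helps load the helicase, fell by 2.14 on the log2 scale.

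Cdt1, the loading factor that works with CDC6, and geminin, encoded by Gmnn, which binds CDT1 and blocks reloading, parted. Gmnn stood at 32.1, 32.1 and 22.7 CPM in controls and at 8.86 and 9.39 CPM under hypergravity (log2 -1.41 ± 0.17, adjusted p = 6.54e-05). Cdt1 stood at 37.1, 32.4 and 28.0 CPM in controls and at 37.7 and 35.7 CPM under hypergravity, so its CPM overlapped between the groups. After TMM scaling its log2 fold change was 0.43 ± 0.13 (adjusted p = 0.0131), a call lost under library size scaling alone (adjusted p = 0.236), with only the groups compared (0.0555) and without hypergravity replicate 1 (0.0861). Within a library, Cdt1 counts per Gmnn count were 1.01 to 1.23 in the 3 controls and 3.81 and 4.25 after hypergravity, and between 1.08 and 1.80 in the other 14 libraries. Mcm10, which helps start the fork, did not pass the test, with 10.1, 10.1 and 12.6 CPM in controls and 8.61 and 8.42 CPM under hypergravity (log2 -0.09 ± 0.18, adjusted p = 0.675). Cdc45, a further helicase component, was called lower but is scarce in this table, with 21, 2 and 19 counts in controls and 1 count in each hypergravity library. That leaves 6.24% of the control level, with a 95% exact counting interval from 0.731% to 24.0%, and the other 14 libraries held 0 to 19 counts.

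Among the genes of DNA synthesis, 5 of 6 fell, against 30.8% of tested genes called lower, and the median log2 fold change was -1.97. Rrm2, the subunit of ribonucleotide reductase that is made in S phase and limits the supply of deoxynucleotides, stood at 30.7, 28.5 and 34.9 CPM in controls and at 1.15 and 0.939 CPM after hypergravity. This is 3.33% of the control mean, and the log2 fold change of -4.67 ± 0.20 had the smallest p of the 48 genes (adjusted p = 3.62e-08). Rrm1, the subunit that carries the active site, went from 64.1, 63.2 and 69.6 CPM to 14.8 and 16.2 CPM (log2 -1.82 ± 0.13). Tk1, the S phase thymidine kinase, kept 5.72% of its control level. Pcna, the sliding clamp of the replication fork and by far the most abundant of the 48 genes, went from 679, 647 and 465 CPM to 233 and 216 CPM (log2 -1.15 ± 0.17, adjusted p = 0.000207). Counts on the pseudogene Pcna-ps2 amounted to 0.258% to 0.821% of Pcna counts, and how the counting split such copies is not given in the sources used here. Uhrf1, which copies DNA methylation behind the fork, fell by 2.12 on the log2 scale. Tyms, thymidylate synthase, had 9.93, 7.79 and 6.65 CPM in controls and 5.46 and 4.66 CPM under hypergravity, groups that did not overlap but did not pass the test (log2 -0.44 ± 0.20, adjusted p = 0.0768). It was called lower in 5 alternatives: library size scaling (0.0089), no count filter (0.0376), the replicate block (0.0113), the fit of all 19 libraries (0.0487) and without control replicate 3 (0.00711).

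All 9 cyclin, kinase and regulator genes of G2 and mitosis fell, against 30.8% of tested genes called lower. The median log2 fold change of the 9 was -2.93. Ccna2, the cyclin that serves both S phase and entry into mitosis, stood at 32.3, 29.0 and 29.7 CPM in controls and at 1.15 and 0.848 CPM after hypergravity, 3.3% of the control mean (log2 -4.70 ± 0.22, adjusted p = 6.96e-08). Cdk1, the mitotic kinase, went from 40.0, 32.8 and 31.1 CPM to 5.41 and 4.21 CPM (log2 -2.60 ± 0.23). Ccnb1, its mitotic cyclin, went from 13.4, 15.5 and 12.5 CPM to 2.703 and 2.67 CPM (log2 -2.10 ± 0.18), and Ccnb2 kept 10.4% of its control level. In each of these genes both hypergravity libraries were low and close to each other. Foxm1, the transcription factor of mitotic genes, went from 9.39, 8.34 and 14.6 CPM to 1.45 and 2.51 CPM (log2 -2.13 ± 0.29, adjusted p = 0.000111). Aurkb, the kinase that corrects faulty attachments of chromosomes, went from 14.7, 13.2 and 12.8 CPM to 1.40 and 1.55 CPM (log2 -2.93 ± 0.16, adjusted p = 1.8e-07). Plk1 and Aurka, kinases of spindle assembly, kept 7.21% and 24.0% of their control levels.

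The spindle checkpoint delays the separation of chromosomes until all are attached, and CDC20 and UBE2C then mark cyclin B for breakdown. All 5 of these genes fell, against 30.8% of tested genes called lower, with a median of -2.71. Bub1b, a checkpoint component, stood at 20.0, 20.3 and 25.4 CPM in controls and at 6.06 and 7.81 CPM under hypergravity (log2 -1.38 ± 0.18). Ube2c went from 16.2, 14.9 and 12.1 CPM to 2.05 and 1.67 CPM (log2 -2.71 ± 0.20). Cdc20 kept 7.8% of its control level and the checkpoint kinase Bub1 32.7%.

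Of the 13 genes of chromosomes, spindle and division, 12 fell, against 30.8% of tested genes called lower. The median of the 13 was the lowest of the 6 roles, -3.07. Top2a, the topoisomerase that untangles sister chromosomes, stood at 70.3, 62.2 and 89.9 CPM in controls and at 6.61 and 7.97 CPM under hypergravity (log2 -3.07 ± 0.21, adjusted p = 8.2e-07). Kif2c, which takes microtubules apart at kinetochores, kept 2.25% of its control level, and Kif11, which pushes the spindle poles apart, kept 3.79%. Cenpf, of the outer kinetochore, kept 4.87% and Birc5, of the chromosomal passenger complex, 6.07%. Tpx2, which seeds spindle microtubules, had a small change, from 27.8, 30.2 and 30.2 CPM to 17.9 and 17.4 CPM (log2 -0.48 ± 0.15, adjusted p = 0.0211).

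Mki67 was the exception in this role. It encodes Ki-67, the protein that coats mitotic chromosomes and is widely used to mark proliferating cells. It stood at 58.6, 66.4 and 98.4 CPM in the controls and at 57.1 and 73.1 CPM under hypergravity, so the groups overlapped. Its log2 fold change was 0.07 ± 0.21 (adjusted p = 0.774), and it turned to -0.19 under library size scaling alone. With the replicate block it was called higher (0.30, adjusted p = 0.0251). Mki67 counts per Top2a count were 0.834 to 1.09 in the 3 controls and 8.64 and 9.17 in the 2 hypergravity libraries. In the other 14 libraries, BMSC included, that ratio stayed between 0.866 and 1.28. Per Ccna2 count, Mki67 counts were 1.82 to 3.31 in controls and 49.6 and 86.2 under hypergravity. As printed above, the promoter windows of Mki67 and Top2a both hold CHR words and CCAAT boxes. Over the 39 genes with a window, the median log2 fold change was -2.71 in the 13 with a CHR word and -1.82 in the 26 without. For CCAAT it was -2.20 in the 30 with it and -2.14 in the 9 without. For an E2F word it was -2.14 in the 7 with it and -2.33 in the 32 without.

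**Figure D2:**
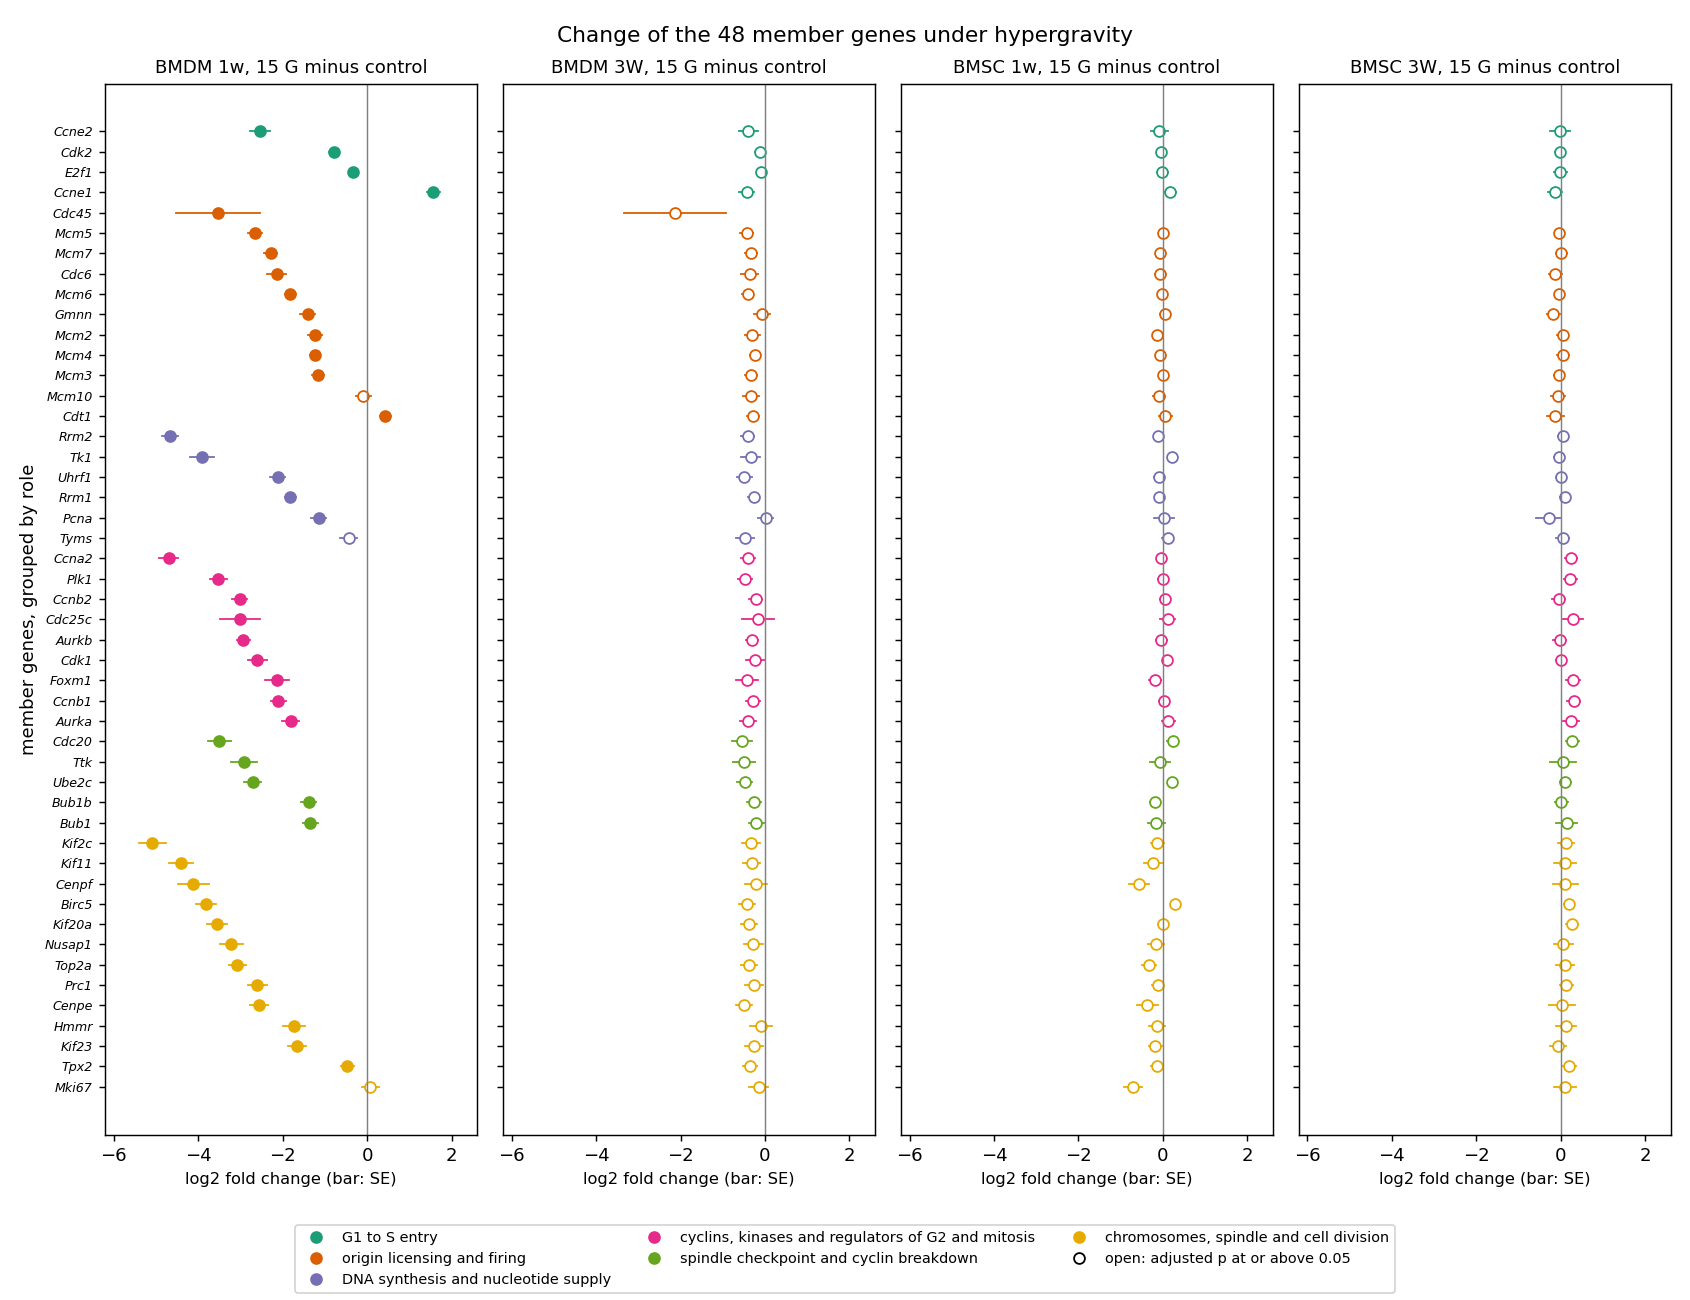
Log2 fold change of the 48 genes under hypergravity against control, 1 panel per set; bars are standard errors, colours are roles, and filled points are genes with an adjusted p below 0.05 (Cdc45 was not tested in BMSC). In 1 week BMDM 45 genes are filled, 43 of them to the left, and in the other 3 sets none is filled.

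Scaling bears on the small changes in this set. With scaling by library size alone the median of all genes moved from -0.03 to -0.29 and 44 genes were called lower and 1 higher, so changes below this size depend on the scaling. The share of higher genes among all called genes then moved from 49.7% to 34.7%. Exons of 15 of the 48 genes overlap another annotated gene (among them Top2a, Ccna2, Plk1, Cdc20 and Tk1), and without strand the reads cannot be told apart. Of the 33 genes without such an overlap, 28 were called lower, against 30.8% of tested genes. Markers of other cells moved alongside. Granulocyte precursor markers fell in 5 of 5 genes, against 30.8% of tested genes called lower. These markers summed to 17.1 to 23.8 CPM in the controls and to 0.951 and 0.697 CPM under hypergravity. Elane and Mpo, which define those cells, went to at most 0.242 and 0.0606 CPM. In the 3 week controls these markers summed to 1.67 and 2.33 CPM, and the 48 genes summed to 2273 and 2110 CPM there and to 1854, 1744 and 1700 CPM in the 1 week controls. Neutrophil markers summed to 245 to 532 CPM in controls and to 218 and 184 CPM under hypergravity, and macrophage markers to 27240 to 29760 CPM and to 23400 and 22830 CPM. The macrophage markers split, with 3 of 7 called higher and 3 lower, where 30.5% of tested genes were higher and 30.8% lower. The sum of endothelial markers was higher, at 9.65 to 15.4 CPM in controls and 38.7 and 44.8 CPM under hypergravity. Most of it was Kdr, with Cdh5 at or below 1.56 CPM throughout BMDM. Of the 4 endothelial genes 2 were called higher and 1 lower, against the same shares. Erythroid markers summed to 3.01 to 8.01 CPM in controls and to 0.751 and 0.666 CPM under hypergravity. B cell markers summed to 4.999 to 6.35 CPM and to 1.90 and 1.79 CPM, but of 3 tested 1 was called higher and 1 lower. T and NK cell markers summed to 1.31 to 2.08 CPM and to 0 and 0.333 CPM. The part of any of these cells in the result was not tested.

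**Figure D3:**
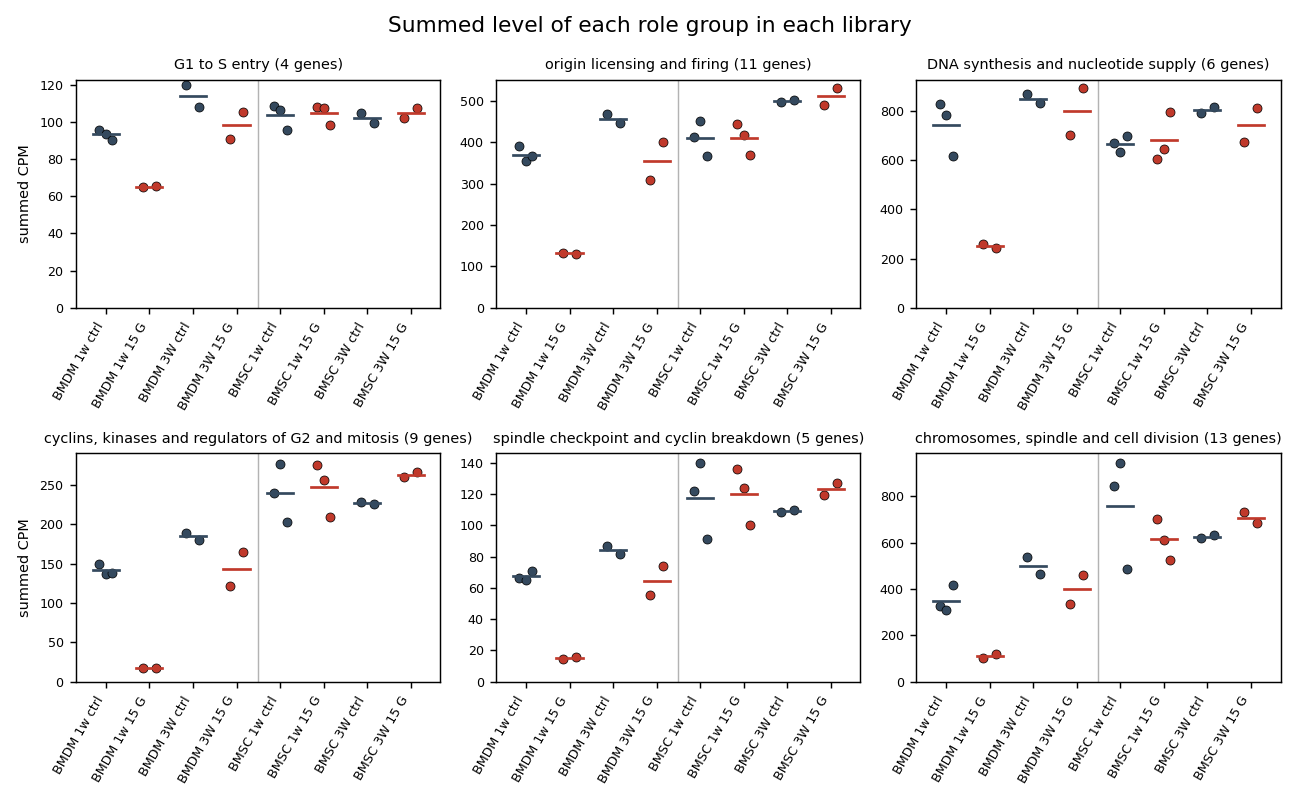
Summed CPM of the genes of each role in each library on linear axes from 0 (dark: control, red: 15 G; short lines: group means). The G2 and mitosis genes sum to 137 to 150 CPM in 1 week BMDM controls and to 16.7 and 17.2 CPM under hypergravity, and the 3 week hypergravity replicate 1 lies below replicate 2 in all 6 panels.

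Other genes of the same pathway were read from 5 further lists. Of 20 further replication genes, 18 were lower and 1 higher in 1 week BMDM, with a median of -1.23, where 30.8% of all tested genes were lower and 30.5% higher. Lig1, the ligase that joins Okazaki fragments, went from 26.6, 27.4 and 29.9 CPM to 3.75 and 4.42 CPM (log2 -2.50 ± 0.15), and Pole, the leading strand polymerase, fell by 3.68. Rfc5, of the clamp loader, fell by 1.72. The pair of chromatin assembly genes Chaf1a and Chaf1b parted, at -1.41 ± 0.13 and 1.09 ± 0.13. Chaf1b stood at 14.4, 13.2 and 11.8 CPM in controls and at 23.4 and 23.3 CPM under hypergravity. Of 24 further mitosis genes, 23 were lower and 1 higher, with a median of -2.96, against the same shares. Cenpa, the histone of centromeres, went from 37.1, 35.8 and 27.8 CPM to 2.75 and 2.30 CPM (log2 -3.49 ± 0.18). Racgap1, of the division furrow, fell by 2.39, and the kinetochore gene Nuf2 and the kinesin gene Kif15 fell by 4.17 and 4.23. The exception was Incenp, of the chromosomal passenger complex, at 0.33 ± 0.12 (adjusted p = 0.0335), a call lost under library size scaling (0.678), without the count filter (0.0783), with only the groups compared (0.0963) and without any of 4 of the 5 libraries (0.0526 to 0.236).

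Of 10 genes of S phase repair and checkpoint, 9 were lower and 1 higher, with a median of -3.03, against the same shares of all tested genes. Clspn, which relays the stalled fork signal, went from 12.3, 12.2 and 16.8 CPM to 0.651 and 0.909 CPM (log2 -3.83 ± 0.26). Fanci, of the Fanconi anaemia pathway, fell by 3.70 on the log2 scale. Exo1, an exonuclease of mismatch repair and recombination, held 2 counts and 1 count in the hypergravity libraries against 111, 60 and 96 in controls. That is 1.47% of the control level with an exact 95% counting interval from 0.302% to 4.35%. Blm, a helicase of recombination, was higher at 0.90 ± 0.24 (adjusted p = 0.00764), a call lost without hypergravity replicate 2 (0.0836).

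**Figure D4:**
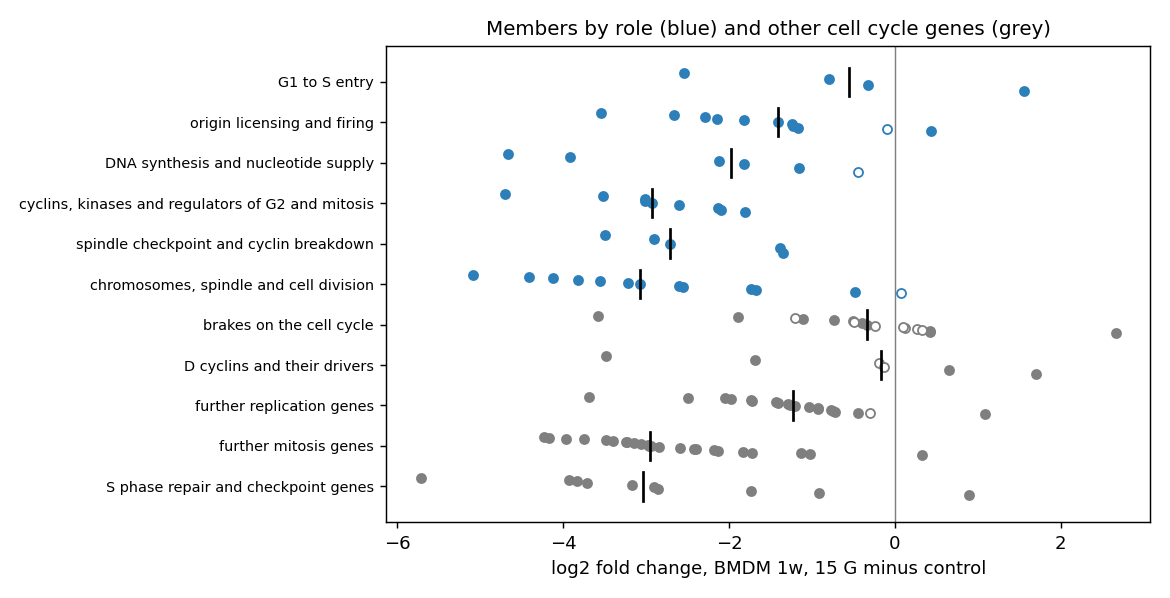
Log2 fold change in BMDM at 1 week for the 6 roles (blue) and for 5 further lists of cell cycle genes (grey); each point is a gene, filled where the adjusted p was below 0.05, and black bars are list medians. The further replication, mitosis and repair lists have medians of -1.23, -2.96 and -3.03, and the brakes and D cyclins spread to both sides of 0.

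Of 6 D cyclin and driver genes, which act before S phase, 2 were lower and 2 higher, shares near the 30.8% and 30.5% of all tested genes. Ccnd1, the D cyclin that growth factors induce, went from 78.9, 75.4 and 97.8 CPM to 6.26 and 6.24 CPM (log2 -3.49 ± 0.19, adjusted p = 1.64e-07), whereas Ccnd2, another D cyclin, went from 3.01, 3.54 and 6.65 CPM to 11.2 and 12.4 CPM (log2 1.71 ± 0.27, adjusted p = 0.000388). Neither gene's groups overlapped. Cdk4, the kinase of the D cyclins, rose by 0.66 ± 0.10 on the log2 scale. Myc, the transcription factor of growth, went from 29.8, 22.6 and 26.1 CPM to 7.66 and 6.03 CPM (log2 -1.69 ± 0.19). Ccnd3 and Cdk6, at -0.20 and -0.13, did not pass the test.

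Of 17 genes that brake the cycle, 3 were higher, 7 lower and 7 did not pass, so the share called was near the 61.4% of all tested genes. Cdkn1a, which encodes the kinase inhibitor p21, stood at 90.7, 91.5 and 96.0 CPM in controls and at 496 and 484 CPM under hypergravity (log2 2.66 ± 0.07, adjusted p = 3.09e-09). Trp53, whose product switches on Cdkn1a, was lower at -0.39 ± 0.09, and Ccng1, a further p53 target, was lower at -0.73 ± 0.10. Of the other inhibitor genes, 3 fell. Cdkn2c (p18) went from 18.0, 18.3 and 16.9 CPM to 1.15 and 1.30 CPM (log2 -3.57 ± 0.15) and Cdkn1c (p57) fell by 1.90. Cdkn1b (p27) went from 41.9, 44.3 and 43.9 CPM to 26.3 and 24.8 CPM (log2 -0.50 ± 0.09, adjusted p = 0.00101). Cdkn2a, Cdkn2b and Cdkn2d did not pass the test, at -1.20 ± 0.64, 0.27 ± 0.32 and 0.33 ± 0.14. Among the retinoblastoma family, Rbl2 fell by 1.10, Rbl1 was higher at 0.43 ± 0.14 and Rb1 did not pass (-0.24 ± 0.10, adjusted p = 0.0601). The calls of Rbl1 and of Ccng2, a cyclin of quiescent cells at 0.42 ± 0.10, were lost under library size scaling (0.352 and 0.192) and without hypergravity replicate 1 (0.0511 for each), and that of Rbl1 also without control replicate 1, control replicate 2 or hypergravity replicate 2 (0.0548 to 0.138).

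**Figure D5:**
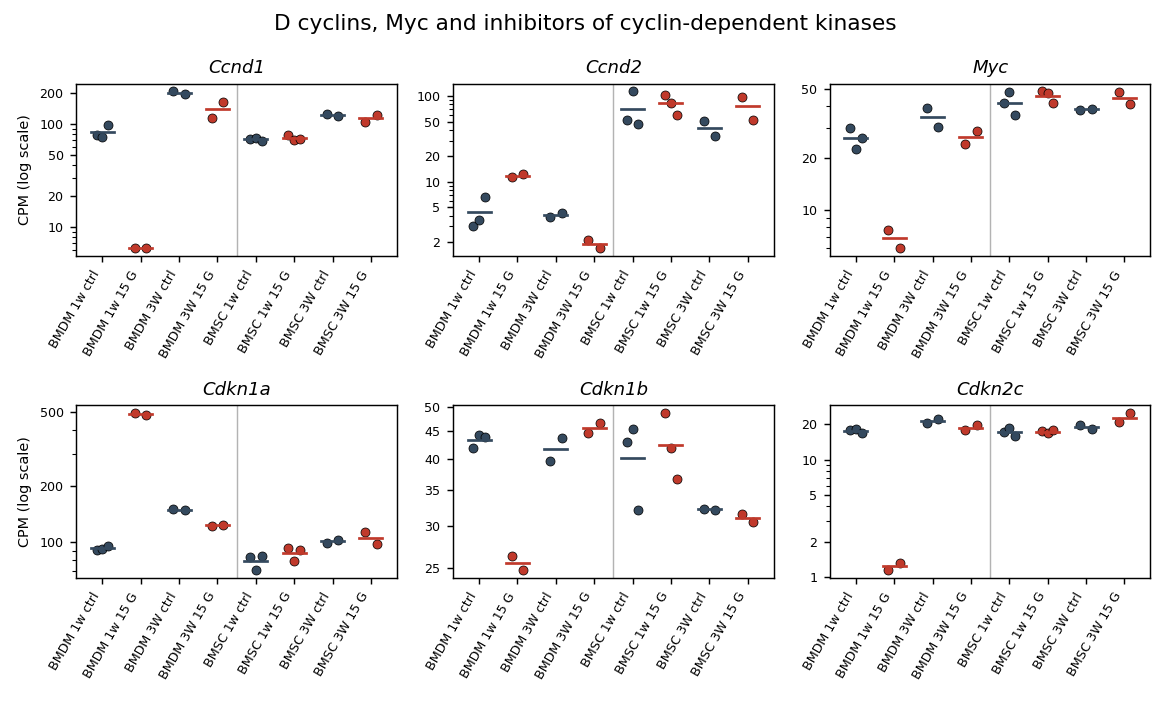
CPM (log axes) of the D cyclins Ccnd1 and Ccnd2, of Myc and of 3 inhibitors of cyclin-dependent kinases in each library (dark: control, red: 15 G; short lines: group means). The 1 week hypergravity BMDM libraries hold 6.26 and 6.24 CPM of Ccnd1 and 496 and 484 CPM of Cdkn1a, outside the range of the other 17 libraries.

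In BMDM at 3 weeks no gene of the 48 was called, where 0.426% of the 13842 tested genes were called, all of them higher. Over all genes 593 had an unadjusted p below 0.05, and DESeq2 also called none of the 47 genes to which it gave an adjusted p. The log2 fold change was below 0 in 47 of 48 genes, with a median of -0.33 beside 0.00 over all tested genes. The 47 other genes ran from -0.54 (Cdc20) to 0.02 (Pcna), and the scarce Cdc45 stood at -2.14 ± 1.21 (5 counts in each control and 1 in each hypergravity library). Both hypergravity libraries lay below both controls in 34 of the 48 genes, against 24.9% of tested genes. Mcm6 had the smallest p, with 123 and 119 CPM in controls and 76.0 and 102 CPM under hypergravity (log2 -0.41 ± 0.14, adjusted p = 0.749). Plk1 followed at -0.47 ± 0.16 (adjusted p = 0.779) and Mcm5 at -0.43 ± 0.15 (adjusted p = 0.859). Mki67 stood at 123 and 100 CPM in controls and at 86.4 and 109 CPM under hypergravity, and Ccne1 at 11.7 and 11.1 CPM and at 7.57 and 8.89 CPM. Ccne1 thus lay below its controls at 3 weeks, and above them at 1 week.

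The 2 hypergravity libraries were unequal. Hypergravity replicate 1 held the lowest level of its set in 48 of 48 genes, against 32.7% of tested genes, while replicate 2 lay below both controls in 34 genes, against 41.5% of tested genes. Over the 47 genes without Cdc45, replicate 1 stood at a median of 65.9% of the control mean (55.1% to 89.1%) and replicate 2 at 89.8% (74.0% to 110.0%). Without replicate 1 the log2 fold change of Mcm6 was -0.23 and that of Mcm5 -0.19, and without replicate 2 they were -0.62 and -0.71. None of these values passed the test (adjusted p from 0.118 to 1.0 over Mcm6, Plk1 and Mcm5).

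The 1 week and 3 week responses of BMDM differed. In the test of 3 weeks minus 1 week 42 of the 48 genes were called, 40 higher and 2 lower, where 43.4% of tested genes were called (21.9% higher and 21.5% lower). The 3 genes with the smallest p were Rrm2 (difference 4.26 ± 0.25, adjusted p = 1.52e-06), Ccna2 (4.29 ± 0.28) and Aurkb (2.62 ± 0.21). The 2 genes with a lower difference were Ccne1 (-1.999 ± 0.24, adjusted p = 0.000111) and Cdt1 (-0.72 ± 0.19, adjusted p = 0.0117, lost without 3 week control replicate 2 at 0.0521 or hypergravity replicate 1 at 0.0644). Not called were E2f1 (0.23 ± 0.13), Mcm10 (-0.24 ± 0.26), Tyms (-0.02 ± 0.29), Mki67 (-0.23 ± 0.31), Tpx2 (0.12 ± 0.22) and the scarce Cdc45. Mki67 was called lower with the replicate block (-0.46, adjusted p = 0.0213) and E2f1 higher under library size scaling (0.45, adjusted p = 0.0206). Among the drivers and brakes, the difference was -2.91 ± 0.11 for Cdkn1a, 2.98 ± 0.24 for Ccnd1, 1.33 ± 0.26 for Myc, -2.79 ± 0.45 for Ccnd2 and 0.67 ± 0.14 for Cdkn1b. At 3 weeks Cdkn1a stood at 150 and 150 CPM in controls and at 122 and 124 CPM under hypergravity, so the levels of the 1 week hypergravity libraries were not seen there.

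Between the control BMDM of the 3 week and 1 week sets no gene of the 48 was called (3.97% of tested genes were, 1.55% higher and 2.41% lower, and 2654 genes had an unadjusted p below 0.05). These controls also enter the comparisons above. The log2 difference was above 0 in 46 of 48 genes with a median of 0.31, and the smallest p belonged to Mcm5 (0.54 ± 0.14, adjusted p = 0.0632), Plk1 (0.56 ± 0.15, 0.0693) and Top2a (0.60 ± 0.17, 0.0896). Without 1 week control replicate 3 the count called was 17 (16 higher and 1 lower). In that fit 3222 of 13738 tested genes were called, 1748 higher and 1474 lower. DESeq2 called 2, where it called 789 of 13920 tested genes. Ccnd1 was higher in the 3 week controls, at 207 and 194 CPM (log2 1.21 ± 0.15, adjusted p = 0.00306), as was Cdkn1a (0.65 ± 0.07, adjusted p = 0.00233).

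In BMSC cultures no gene passed the test. At 1 week 0 of 47 tested genes were called, where 2.72% of 15289 tested genes were called, 0.249% higher and 2.47% lower (2821 genes had an unadjusted p below 0.05, and DESeq2 called 1 of the 47). The median log2 fold change in the 6 roles lay between -0.17 and 0.03. Ccna2 stood at 58.0, 69.5 and 46.8 CPM in controls and at 63.9, 62.4 and 47.3 CPM under hypergravity, Rrm2 at 52.0, 61.1 and 44.1 CPM and at 51.9, 51.1 and 45.6 CPM. Their groups overlapped almost fully, with log2 fold changes of -0.03 ± 0.11 and -0.11 ± 0.10. Mki67 had the smallest p, with 241, 254 and 116 CPM in controls and 151, 125 and 105 CPM under hypergravity (log2 -0.70 ± 0.21, adjusted p = 0.114), and it was called lower with DESeq2 (0.0322), without the count filter, with the replicate block (0.0387) and without control replicate 3 (0.00707). Birc5 followed at 0.29 ± 0.10, and then Cenpf at -0.57 ± 0.23 (adjusted p = 0.174 and 0.231). The hypergravity libraries lay above all controls in 3 genes, Ccne1, Tk1 and Ube2c, against 11.2% of tested genes, and below them in 0, against 9.33%.

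Control replicate 3 of this set stood apart. It held the lowest level of its set in 29 of 47 genes, against 29.3% of tested genes, and hypergravity replicate 3 in 14, against 22.7%. Control replicates 1, 2 and 3 stood at a median of 102%, 117% and 82.6% of the hypergravity mean. Without control replicate 3, 5 genes were called lower, where 857 of 15057 tested genes were. Without both libraries numbered 3, an alternative chosen after seeing the data, 4 were, where 594 of 15274 tested genes were. Other cells' markers moved with these libraries. Granulocyte precursor markers summed to 452, 479 and 305 CPM in the controls and to 401, 394 and 170 CPM under hypergravity, and their part in the result was not tested.

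At 3 weeks 0 of 47 genes were called in BMSC, and 0% of the 15289 tested genes were called. Over all genes 800 had an unadjusted p below 0.05, and DESeq2 also called none of the 47. The smallest p belonged to Ccnb1, with 23.7 and 21.8 CPM in controls and 29.0 and 29.5 CPM under hypergravity (log2 0.31 ± 0.15, adjusted p = 0.899), followed by Kif20a, a kinesin of the division furrow (0.27 ± 0.14), and Ccna2 (0.24 ± 0.14). Both hypergravity libraries lay above both controls in 24 genes, against 31.2% of tested genes, and below them in 1, Pcna, against 14.4%. Sums of granulocyte precursor, stromal, neutrophil, B cell and endothelial markers also lay above both controls in these libraries, with no marker gene called. Sums of macrophage, erythroid and T and NK cell markers overlapped the controls. Granulocyte precursor markers summed to 188 and 228 CPM in controls and to 309 and 283 CPM under hypergravity, stromal markers to 2507 and 1917 CPM and to 7964 and 3687 CPM, and neutrophil markers to 1953 and 2049 CPM and to 2691 and 2498 CPM. Their part was not tested. Mki67 stood at 148 and 158 CPM in controls and at 180 and 163 CPM under hypergravity (log2 0.10 ± 0.26). The responses at 3 weeks and 1 week did not differ beyond the test in any of the 47 genes, where 0% of tested genes were called and 1423 had an unadjusted p below 0.05. The smallest p were those of Mki67 (difference 0.80 ± 0.34, adjusted p = 0.512), Foxm1 (0.48 ± 0.22) and Cenpf (0.68 ± 0.37), and Mki67 was called without the count filter (adjusted p = 0.0098).

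Between the control BMSC sets, 3 of 47 genes were called, all higher at 3 weeks, where 7.05% of tested genes were called (3.32% higher and 3.73% lower). Mcm6 stood at 90.6, 94.7 and 78.3 CPM at 1 week and at 120 and 122 CPM at 3 weeks (log2 0.51 ± 0.10, adjusted p = 0.0152). Tk1 stood at 22.8, 24.8 and 21.0 CPM and at 29.4 and 31.8 CPM (0.47 ± 0.11, adjusted p = 0.0356). Mcm5 stood at 50.4, 54.9 and 44.9 CPM and at 59.7 and 63.4 CPM (0.35 ± 0.09, adjusted p = 0.0398). In these 3 genes the sets did not overlap. Granulocyte precursor markers summed to 305 to 479 CPM at 1 week and to 188 and 228 CPM at 3 weeks, and stromal markers to 3427 to 9805 CPM and to 2507 and 1917 CPM. Of 7 macrophage markers 3 were called higher at 3 weeks, and of 4 tested erythroid markers 3. The part of these cells was not tested. The count was 1 without 1 week control replicate 1 or replicate 2 and 10 without replicate 3. Those 10 were 4 higher and 6 lower genes, where 2425 of the 15057 genes tested then were called. With 3 week control replicate 1 or 2 left out, the log2 difference was 0.54 or 0.49 for Mcm6. It was 0.54 or 0.40 for Tk1 and 0.41 or 0.30 for Mcm5.

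The 1 week response itself differed between the cell types in 42 of the 48 genes, 41 of them lower in BMDM and 1, Ccne1, higher, where 49.6% of the 15550 tested genes were called (24.7% lower and 24.8% higher). The smallest p belonged to Rrm2 (BMDM minus BMSC -4.56 ± 0.21, adjusted p = 6.14e-11), Ccna2 (-4.67 ± 0.25) and Birc5 (-4.10 ± 0.25). Ccne1 differed by 1.38 ± 0.21 (adjusted p = 3.68e-05). Not called were E2f1 (-0.32 ± 0.17), Cdt1 (0.37 ± 0.22), Mcm10 (-0.0015 ± 0.22), Tyms (-0.56 ± 0.23), Tpx2 (-0.34 ± 0.22) and Mki67 (0.77 ± 0.33, adjusted p = 0.0584). Mki67 was called in 6 alternatives (adjusted p from 0.000274 to 0.0485): DESeq2, no count filter, the replicate block, and without BMDM control replicate 3, BMSC control replicate 3 or BMSC hypergravity replicate 1. Alternatives also gave a call to Tyms (4), E2f1 (2) and Cdt1 (1). Cdkn1a rose in BMDM by 2.55 ± 0.16 more than in BMSC, where it stood at 83.0, 71.2 and 84.6 CPM in controls and at 93.6, 79.6 and 91.1 CPM under hypergravity. Ccnd1, at 70.8, 73.3 and 68.4 CPM and at 77.6, 69.4 and 71.2 CPM in 1 week BMSC, differed by -3.49 ± 0.20.

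Over both control sets, 32 of the 48 genes differed between the cell types, 28 lower and 4 higher in BMDM, where 49.8% of tested genes were called (27.7% lower and 22.2% higher). Rrm2 was lower in BMDM (-0.59 ± 0.09, adjusted p = 3.23e-05), as was Mcm2 (-0.60 ± 0.10). The 4 genes higher in BMDM were E2f1 (0.53 ± 0.09, adjusted p = 8.97e-05), Gmnn (0.51 ± 0.11), Pcna (0.50 ± 0.17, adjusted p = 0.0212) and Mcm6 (0.20 ± 0.08, adjusted p = 0.0458). The call of Pcna was lost without any of 5 control libraries (0.0506 to 0.0702), and that of Mcm6 in 14 of the alternatives (0.0517 to 0.514). Mki67 was lower in BMDM at -0.82 ± 0.17 and Cenpf at -0.89 ± 0.20. Of 7 macrophage markers 5 were called higher and 1 lower in BMDM, with a median log2 difference of 0.62. Granulocyte precursor markers summed to at most 23.8 CPM in BMDM controls and to 188 to 479 CPM in BMSC controls. The part of these cells in this difference was not tested.

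Per kilobase of exonic length, Pcna led in the controls of both cell types, at 259 CPM per kb in BMDM and 198 CPM per kb in BMSC. Mcm6 followed in both at 22.8 and 21.7 CPM per kb. Next came Gmnn (19.1) and Mcm3 (15.0) in BMDM and Rrm2 (20.2), Mki67 (18.2) and Top2a (18.1) in BMSC. At the low end stood Cdc25c, the phosphatase that activates CDK1, at 0.541 and 0.891 CPM per kb, and Cdc45, at 0.127 and 0.0554 CPM per kb.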

How the data were processed

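RNA sequencing of 19 mouse libraries was deposited by the authors as 1 table of raw read counts per gene symbol, not normalized. Per the submitters' processing notes HISAT2 2.0.4 and the mm10 genome were used. For the counting program, its annotation and its strand setting: not given in the sources used here.

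From these counts, CPM was computed on each library's total, and edgeR 4.0.16 (R 4.3.3, limma 3.58.1) was run with TMM scaling, its filter on low counts and the quasi-likelihood test. BMDM (9 libraries, 13842 genes, 5 residual degrees of freedom) and BMSC (10 libraries, 15289 genes, 6) were fitted separately, and all 19 libraries (15550 genes, 11) for comparisons between cell types. All 48 genes passed the filter in BMDM and 47 in BMSC, where Cdc45 did not. Genes with a Benjamini-Hochberg adjusted p below 0.05 over all tested genes were called. The scripts were tested on simulated data. GENCODE M21 (GRCm38) gave exonic lengths and overlaps, and all 48 symbols matched.

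Depth ran from 16324619 to 33015671 counts, and intervals and floors cover counting error only. Replicate libraries differed by 4.296 to 97.95 times the counting variance, so none was a repeat deposit. Nothing in the labels ties replicates to separate animals or cultures. The spread behind each p-value is therefore that among these libraries and may be technical.

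The members and lists were chosen with earlier results of these data known. Values in every library are given for the 2 most abundant genes of each role and for 9 genes chosen by name. The 3 genes with the smallest p per comparison were named, with those that moved against the majority or did not pass. From each further list the 4 genes with the smallest p were named, with Cdkn1a, Cdkn1b, Ccnd1, Ccnd2 and Myc. One gene that this rule names is not reported here. Further genes (among them Kif2c, Kif11, Plk1, Trp53 and Chaf1a) were named after their values were seen. Alternatives were DESeq2 1.42.0 and its size factors, library size scaling, other count filters, a replicate block, other sets of libraries in the fit and leaving out each library.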

Additional observations from a re-analysis of the deposited data

Results flagged for a closer look

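The response to hypergravity differed between sets of libraries, as tests of the difference itself. In BMDM the 3 week minus 1 week response was called in 42 of the 48 genes (edgeR, adjusted p below 0.05). The difference was 4.26 for Rrm2, 4.29 for Ccna2 and 2.62 for Aurkb on the log2 scale, and -1.999 for Ccne1 and -0.72 for Cdt1. Duration and set cannot be told apart in this difference.

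Between cell types, the 1 week response of BMDM minus that of BMSC was likewise called in 42 genes. The difference was -4.56 for Rrm2, -4.67 for Ccna2 and -4.10 for Birc5, and 1.38 for Ccne1. No group held 4 or more libraries, so single libraries were not tested as outliers.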

How the results depend on the processing

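Over all alternatives, 41 to 44 genes were called lower in 1 week BMDM. The next counts take both directions together. They were 41 to 43 in the BMDM difference between 3 weeks and 1 week, most of them higher. In the 1 week difference between cell types they were 41 to 44, and between control BMDM and control BMSC 24 to 35. The count called higher in 1 week BMDM was 1 under library size scaling and with only the groups compared, 1 to 2 with a library left out and 3 with the replicate block, which added Mki67. In 3 week BMDM the replicate block gave 1 lower gene and the block with crossed numbers 5. Over all 13842 tested genes these fits called 36 and 74 lower. Between BMDM controls, DESeq2 gave 2, no count filter 8, the block 6, the fit of all 19 libraries 2 and left-out libraries 0 to 17. Over all tested genes DESeq2 called 789 of 13920 and no count filter 1476 of 24197. The block called 3004 of 13842 and the fit of all 19 libraries 546 of 15550. In 1 week BMSC the lower count was 1 with DESeq2, 2 without the count filter and 1 with the block. Those fits called 692 of 13670, 814 of 25516 and 560 of 15289 tested genes lower. The lower count was 0 to 5 with a library left out and 4 without both libraries numbered 3. The BMSC difference between responses gave 1 without the count filter, where 391 of 25516 tested genes were called. Between BMSC controls the count was 5 without the count filter, 0 with the block and 1 with only the groups compared. Those fits called 2720 of 25516, 345 of 15289 and 435 of 14795 tested genes. The count was 1 to 10 with a 1 week control left out and 11 without both libraries numbered 3. In that last fit 2899 of 15274 tested genes were called. Of those 10 genes 6 were lower, and of those 11 genes 7. Without 1 week control replicate 3, the tested genes called between controls rose from 549 to 3222 in BMDM and from 1078 to 2425 in BMSC. The causes were not tested.

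Of 1345 alternatives of 93 single-gene results, 1216 kept direction and side of the threshold, 59 lost the call, 46 gained one and 24 changed sign. All changes of sign were in genes that had not passed. In 1 week BMDM, Mki67 was -0.19 under library size scaling, -0.11 to 0.30 with a library left out and 0.30 and called with the replicate block, and Mcm10 was 0.0099 with the replicate block. In the BMDM difference between responses, Mki67 was 0.0018 and Tyms 0.20 under library size scaling, and Mki67 was -0.46 and called with either block (adjusted p = 0.0213, and 0.000852 with crossed numbers). Tyms there was 0.037 without the count filter, 0.085 with the replicate block, 0.086 with crossed numbers and -0.22 to 0.13 with a library left out. Leaving out a library gave -0.52 to 0.032 for Mcm10 and -0.16 to 0.37 for Tpx2. In the difference between cell types Mcm10 was 0.013 with DESeq2, 0.015 with its size factors, 0.0070 with the filter at 1 CPM, 0.10 with the block and -0.065 to 0.11 with a library left out.

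Whether same-numbered libraries deviate together was mixed. Correlations of deviations were 0.385 and -0.221 in 1 week BMDM, -0.16 in 3 week BMDM, -0.137, 0.148 and 0.545 in 1 week BMSC and 0.156 in 3 week BMSC. In sets of 2 libraries a group both values are equal by construction. Not every pair was over 0.1, so the numbers were not taken to pair the libraries. The crossed block and the fit without both libraries numbered 3 were chosen after seeing the data. For differences within a cell type, only the groups compared is the same fit. Cdc45, at 0 to 21 counts a library, is limited by depth.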
